A study of Mus musculus with 18 samples.

Results

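The transcripts described here code for the enzymes that write and erase DNA methylation and for the core of Polycomb repressive complex 2 (PRC2). They are 10 of the 55450 genes in the count file, chosen by name: the DNA methyltransferases Dnmt1, Dnmt3a and Dnmt3b, the maintenance cofactor Uhrf1, the dioxygenases Tet1, Tet2 and Tet3, and the PRC2 subunits Ezh2, Eed and Suz12. All 10 passed the filter on low counts. On GRCm38 they lie at chr9:20907209-20959888 (Dnmt1), chr12:3806007-3914443 (Dnmt3a), chr2:153649450-153687730 (Dnmt3b), chr17:56303321-56323486 (Uhrf1), chr10:62804570-62908996 (Tet1), chr3:133463679-133545139 (Tet2), chr6:83362373-83459084 (Tet3), chr6:47530139-47595341 (Ezh2), chr7:89954654-89980983 (Eed) and chr11:79993106-80034123 (Suz12). Dnmt3a, Tet2, Ezh2, Eed and Suz12 share some exonic bases with a gene on the opposite strand, and whether the counting used strand is not given in the sources used here. RNA was sequenced from 15 mammary tumors and 3 normal mammary glands of C57Bl/6 female mice, with 1 library per mouse. The 5 B1/P/Rbf tumors carried floxed Brca1, floxed Trp53 and the TgK18GT121 transgene, the 5 B1/P tumors both floxed genes without the transgene, and the 5 P/Rbf tumors floxed Trp53 with the transgene. The transgene is dependent on Cre and driven by the keratin 18 promoter, so that T121, a fragment that binds and inhibits pRb, p107 and p130, is made in epithelial cells. In all tumor models the alleles were recombined by an adenovirus that expresses Cre, injected into the mammary ducts of adult mice, and the floxed Brca1 and Trp53 alleles had been bred into C57Bl/6 J. The glands were wild type. Trp53 loss was therefore shared by every tumor, and the tumor models differed in Brca1 loss and T121.

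DNA methylation at CpG sites is copied after replication by Dnmt1, which Uhrf1 brings to hemimethylated DNA, and is set on unmethylated DNA by Dnmt3a and Dnmt3b. The Tet enzymes oxidize 5-methylcytosine, the first step of its removal. PRC2 methylates lysine 27 of histone H3 through its catalytic subunit Ezh2, or the alternative subunit Ezh1, and needs Eed and Suz12 for activity. Transcription of several of these genes is known to follow the cell cycle through E2F factors, which the pRb family represses.

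Total expected counts ranged from 27661173 to 37794889 per library. Brca1 counts include exons outside any deleted part, and Brca1 was at 21.1 to 45 CPM (reads of a gene relative to the library total, scaled by TMM factors throughout) in B1/P/Rbf tumors, 8.13 to 27.9 in B1/P tumors, 44.9 to 116 in P/Rbf tumors and 4.61 to 5.99 in glands. B1/P/Rbf tumor 208863, at 45 CPM, lay within the range of the P/Rbf tumors. By the study's own RT-qPCR the loss of Brca1 was only partial in that tumor. Trp53 fell in each tumor model against the glands, from 54.4 to 71.8 CPM to between 6.75 and 24.3 CPM. Of the marker lists, all 8 adipocyte, all 10 lymphocyte and all 6 skeletal muscle markers were called lower in each tumor model than in the glands, and all 20 proliferation genes higher. Summed adipocyte markers were at 23400 to 29900 CPM in glands and at 7.52 to 277 CPM in tumors, and summed muscle markers at 22800 to 45500 and 0.92 to 593 CPM. Epithelial markers were detected in every library, with sums of 1650 to 2280 CPM in glands, 815 to 2640 in B1/P tumors, 3170 to 6230 in B1/P/Rbf tumors and 4970 to 9230 in P/Rbf tumors. In these bulk samples, fewer cells of a type and less RNA per cell cannot be told apart.

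Dnmt1, the maintenance methyltransferase, was at 522, 636, 475, 575 and 1009.8 CPM in the B1/P/Rbf tumors, and at 366, 491, 328, 399 and 447 CPM in the P/Rbf tumors. The B1/P tumors had 247, 261, 253, 310 and 248 CPM, and the glands 60.7, 69.3 and 54.3 CPM. Every tumor with T121 thus exceeded every B1/P tumor, and every tumor exceeded every gland, while the lowest B1/P/Rbf tumor lay below the highest P/Rbf tumor. Against B1/P tumors Dnmt1 rose 2.44-fold in B1/P/Rbf tumors (log2 fold change 1.29, SE 0.20, edgeR quasi-likelihood test with Benjamini-Hochberg adjusted p = 0.000799, n = 5 and 5) and 1.54-fold in P/Rbf tumors (log2 fold change 0.62, SE 0.20, edgeR adjusted p = 0.0362). The fit was repeated under 7 alternatives: DESeq2, limma-voom, scaling without TMM, no filter on low counts, a filter of log2 CPM of 6 or more, only the groups compared, and an added term for libraries 1 to 8 against 9 to 18, the library term. Only B1/P tumors lie on both sides of that split (3 in libraries 1 to 8 and 2 in 9 to 18), so they alone set the library term. The first Dnmt1 call held under all 7 alternatives and with any single library left out. The second held under 1 of 7 alternatives and was lost without B1/P tumor 225068, 225070, 246361 or 248662 or P/Rbf tumor 287845, 287822 or 290845, with edgeR, limma or DESeq2 adjusted p from 0.0126 to 0.21. Between B1/P/Rbf and the P/Rbf tumors the log2 difference was 0.66 (SE 0.20), which was not called (edgeR adjusted p = 0.125; 0.0303 by DESeq2). Against the glands Dnmt1 rose 10.5-fold, 4.29-fold and 6.61-fold in B1/P/Rbf, the B1/P and the P/Rbf tumors.

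Uhrf1 RNA was at 225, 141, 271, 303 and 384 CPM in B1/P/Rbf tumors, and at 117, 305, 241, 387 and 300 CPM in P/Rbf tumors. In B1/P tumors it was at 139, 118, 156, 203 and 80.4 CPM, and in glands at 13.8, 13.9 and 19.3 CPM. The tumors all lay far above the glands, whereas B1/P tumors overlapped with a low tumor of each T121 model. The rise over the glands was 16.9-fold in B1/P/Rbf tumors, 8.92-fold in B1/P tumors and 17.3-fold in P/Rbf tumors, with edgeR adjusted p = 2.69e-06, 2.82e-05 and 2.49e-06. Over B1/P tumors Uhrf1 had log2 differences of 0.92 (SE 0.31) in B1/P/Rbf tumors, not called, and 0.95 (SE 0.31) in P/Rbf tumors, called, with edgeR adjusted p = 0.0529 and 0.0431. These near-equal values lie on either side of the threshold, and the call in P/Rbf tumors was lost under 6 of 7 alternatives and without B1/P/Rbf tumor 208863, B1/P tumor 225068, 225070, 246361 or 248662, or P/Rbf tumor 287845, 290860, 287822 or 290845 (edgeR, limma or DESeq2 adjusted p up to 0.195). Without B1/P/Rbf tumor 208857, B1/P tumor 255232 or P/Rbf tumor 287842 or 287822, the difference of B1/P/Rbf tumors was called as well (edgeR adjusted p down to 0.0235), as it was by DESeq2 (adjusted p = 0.0298). B1/P/Rbf and P/Rbf tumors differed by -0.03 (SE 0.31) on the log2 scale.

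The promoters of Dnmt1 and Uhrf1 are shown because these genes had the largest rises over the glands, and those of Ezh2 and Suz12 because they also hold an E2F-type motif. The sequences are RefSeq promoters on GRCm38.p6, 5′ to 3′ on the gene's strand, from 250 bases before to 50 bases after a start. Capitals mark E2F-type motifs, searched as TTTCCCGC, TTTGGCGC, TTTCGCGC or TTTGCCGC on both strands. For Dnmt1 the third of its listed starts is given (chr9:20952574-20952873, minus strand), for Uhrf1 the second (chr17:56304063-56304362, plus strand). These starts were picked because they hold the motif, and the other listed starts of Dnmt1 and Uhrf1 hold none. Ezh2 (chr6:47594981-47595280, minus strand) and Suz12 (chr11:79992856-79993155, plus strand) each have 1 listed start.
Dnmt1: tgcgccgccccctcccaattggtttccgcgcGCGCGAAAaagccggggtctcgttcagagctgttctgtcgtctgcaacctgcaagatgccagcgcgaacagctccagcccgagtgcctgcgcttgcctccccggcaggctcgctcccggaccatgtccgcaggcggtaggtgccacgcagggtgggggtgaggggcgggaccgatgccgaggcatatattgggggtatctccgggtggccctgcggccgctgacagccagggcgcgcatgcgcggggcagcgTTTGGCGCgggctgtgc
Uhrf1: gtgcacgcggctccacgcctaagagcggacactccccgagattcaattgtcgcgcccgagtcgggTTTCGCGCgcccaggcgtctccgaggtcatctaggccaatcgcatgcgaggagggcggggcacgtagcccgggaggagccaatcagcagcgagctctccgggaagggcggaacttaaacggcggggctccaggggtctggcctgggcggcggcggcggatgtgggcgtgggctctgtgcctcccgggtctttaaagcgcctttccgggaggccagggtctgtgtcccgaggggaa
Ezh2: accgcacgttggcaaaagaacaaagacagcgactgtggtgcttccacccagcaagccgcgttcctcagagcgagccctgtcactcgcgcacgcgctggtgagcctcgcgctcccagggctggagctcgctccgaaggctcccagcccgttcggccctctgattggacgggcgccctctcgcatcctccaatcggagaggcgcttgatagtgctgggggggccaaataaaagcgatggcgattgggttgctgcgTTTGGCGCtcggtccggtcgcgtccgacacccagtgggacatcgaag
Suz12: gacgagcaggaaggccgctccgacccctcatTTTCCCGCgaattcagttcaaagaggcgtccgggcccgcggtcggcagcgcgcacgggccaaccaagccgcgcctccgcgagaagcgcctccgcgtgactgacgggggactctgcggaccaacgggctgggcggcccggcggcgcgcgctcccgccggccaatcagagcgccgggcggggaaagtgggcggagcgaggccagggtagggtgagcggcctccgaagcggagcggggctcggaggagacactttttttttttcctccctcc
An E2F-type motif was present in a promoter of 4 of the 10 genes, against 2.6% of 27025 genes in the table. Dnmt1 has one at -219 and one at 33 bases from the start, Uhrf1 at -185, Ezh2 at 3 and Suz12 at -219. The other cell-cycle motif searched, the CHR element TTTGAA on both strands, was found for Dnmt1, Dnmt3b, Eed and Suz12, against 20.2% of all genes. For Dnmt1 it lies at the first listed start, which is not shown. A match of letters is a description of the window and was not tested for binding. All 4 genes with an E2F-type motif were called higher in at least 1 tumor model than in the glands. So were Dnmt3a and Tet3, whose windows hold none. Over all genes, the share called higher than in glands in a single model ran from 16.8% (B1/P tumors) to 17.4% (P/Rbf tumors). The share called in at least 1 model was not computed, either for all genes or for those with the motif. A link between motif and rise was therefore not tested.

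The de novo methyltransferase Dnmt3a was at 186, 237, 249, 212 and 208 CPM in B1/P/Rbf tumors, all above the B1/P tumors at 125, 173, 121, 124 and 89.5 CPM. P/Rbf tumors spread over 274, 61.8, 128, 79.1 and 209 CPM, and the glands had 102, 88.1 and 90.3 CPM. The B1/P/Rbf tumors lay within the range of the P/Rbf tumors. Dnmt3a was called higher in B1/P/Rbf tumors than in glands (2.33-fold, edgeR adjusted p = 0.0183), a call lost with the filter of log2 CPM of at least 6, with the library term and without gland 330155 or 330156 (adjusted p up to 0.335). The difference from B1/P tumors, 0.79 on the log2 scale (SE 0.32), was not called (edgeR adjusted p = 0.0978) although the groups did not overlap. It was called with only these groups fitted (edgeR adjusted p = 0.0207) or without P/Rbf tumor 287842 (edgeR adjusted p = 0.046). P/Rbf tumors differed from glands by 0.68 (edgeR adjusted p = 0.158), which was called without TMM scaling (0.0485) or without P/Rbf tumor 287845 (0.0434). It was 0.26 with the filter of log2 CPM of 6 or more (edgeR adjusted p = 0.59), 0.32 by limma-voom (adjusted p = 0.512) and 0.44 without P/Rbf tumor 287842 (edgeR adjusted p = 0.307).

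Dnmt3b, the other de novo enzyme, was low throughout. It ranged from 5.28 to 9.44 CPM in B1/P/Rbf tumors, 4.65 to 22.9 in B1/P tumors, 2.42 to 16.3 in P/Rbf tumors and 4.38 to 5.17 in glands. The edgeR fit called it in no comparison, with log2 differences from -0.66 (SE 0.49) between B1/P/Rbf and the B1/P tumors to 1.36 (SE 0.60) between B1/P tumors and glands (edgeR adjusted p = 0.0899). The former was -0.30 without B1/P tumor 225068 and -0.39 by limma-voom (edgeR adjusted p = 0.732 in the first case). The latter was called by DESeq2 (adjusted p = 0.0443), without TMM scaling (edgeR adjusted p = 0.0356) and without B1/P tumor 225070 (edgeR adjusted p = 0.0499). Within each tumor the log2 ratio of Dnmt3b to Dnmt3a averaged -4.86 ± 0.28 (SD, n = 5) in B1/P/Rbf tumors and -3.55 ± 1.11 (SD, n = 5) in B1/P tumors. That difference of -1.31 had an exact two-sided permutation p = 0.0476, and 0.143 after Benjamini-Hochberg adjustment over 12 ratio comparisons. The ratio averaged -4.17 ± 0.88 (SD, n = 5) in P/Rbf tumors and -4.29 ± 0.23 (SD, n = 3) in glands. Its other comparisons had exact permutation p from 0.0714 (B1/P/Rbf tumors against glands) to 0.857 (P/Rbf tumors against glands).

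**Figure D1:**
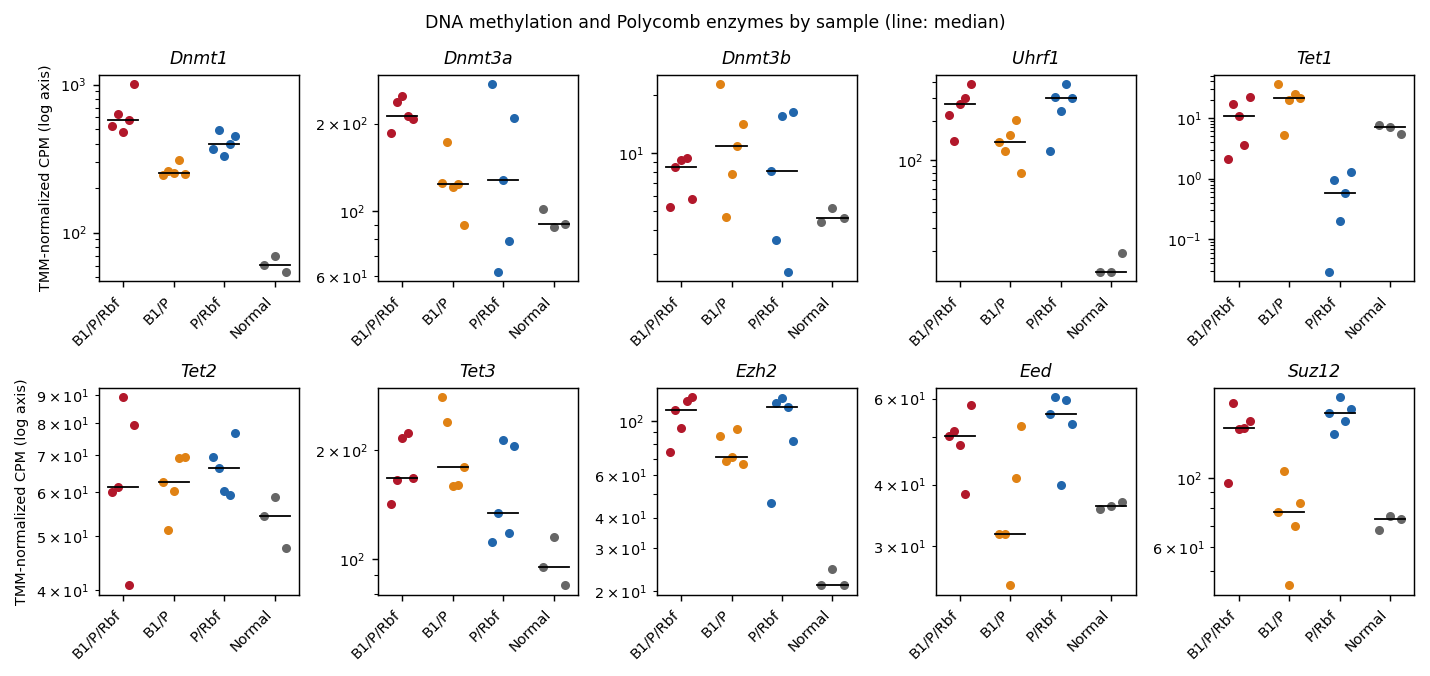
TMM-scaled CPM of each of the 10 genes on a log axis, with 1 point per library in the 15 tumors (5 per model) and the 3 normal glands, and a line at each group's median. Dnmt1, Uhrf1 and Ezh2 lie above the glands in every tumor, and the 5 P/Rbf tumors lie at 0.029 to 1.29 CPM for Tet1, below every other library.

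Of the Tet enzymes, Tet1 was lowest in P/Rbf tumors. The 5 P/Rbf tumors had 0.029, 0.95, 0.2, 0.58 and 1.29 CPM, which rest on 1, 30, 8, 22 and 38 counts. The B1/P tumors had 36.4, 5.27, 19.8, 24.8 and 21.6 CPM, the B1/P/Rbf tumors 2.1, 17.3, 10.6, 3.65 and 22.2 CPM, and the glands 7.54, 7.07 and 5.42 CPM. No P/Rbf tumor reached any library of another group, while the B1/P/Rbf tumors overlapped with both the B1/P tumors and the glands. Tet1 fell by 5.15 on the log2 scale in P/Rbf against B1/P tumors (SE 0.85, edgeR adjusted p = 0.00108) and by 3.45 against the glands (SE 0.84, edgeR adjusted p = 0.00381). Both calls held under the 6 alternatives that tested Tet1 and without any single library. In these fits the fall against B1/P tumors ranged from -5.62 to -4.80, with a highest adjusted p of 0.008 among edgeR, limma and DESeq2.

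Tet1 was 18.3-fold higher in B1/P/Rbf than in P/Rbf tumors, a log2 difference of 4.20 (SE 0.81, edgeR adjusted p = 0.0376). All 5 B1/P/Rbf tumors exceeded all 5 P/Rbf tumors. The call rests on a narrow margin: it was lost with limma-voom, with only these groups fitted, with the library term, and without any of 10 single libraries, 2 of them B1/P/Rbf (208857 and 210906), 3 P/Rbf (287845, 290860 and 287822), 2 B1/P (255232 and 248662) and the 3 glands, the adjusted p reaching 0.177 over edgeR, limma and DESeq2. The log2 difference stayed between 3.79 and 4.66 in all of them. B1/P/Rbf libraries are all numbered 1 to 5 and P/Rbf libraries 11 to 15, and the labels name no batch. Any technical difference that went with this order could not be told apart from Brca1 status. Among libraries 9 to 18, the 2 B1/P tumors had Tet1 at 21.6 and 24.8 CPM, both above all P/Rbf tumors. B1/P tumors differ from P/Rbf tumors in T121 as well as Brca1, so these values do not separate library order from Brca1 status.

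Tet1 (ENSMUSG00000047146) lies on chromosome 10. A RefSeq promoter of it on GRCm38.p6, chr10:62887275-62887574 on the minus strand, is shown because Tet1 had the largest difference between tumor models. This window lies inside the annotated gene, whose outermost start on the minus strand is at 62908996. The window has no E2F-type motif or CHR element and 17 CG dinucleotides, against a median of 7 over all promoters in the table.
Tet1: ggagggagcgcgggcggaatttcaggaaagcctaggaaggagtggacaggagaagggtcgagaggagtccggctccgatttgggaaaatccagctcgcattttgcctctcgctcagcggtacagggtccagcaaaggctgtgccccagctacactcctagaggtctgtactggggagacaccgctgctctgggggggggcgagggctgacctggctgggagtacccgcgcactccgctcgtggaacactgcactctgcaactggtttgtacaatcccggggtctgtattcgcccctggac
The 5 tested genes on either side of Tet1 were described after its values were seen. None was called between P/Rbf and B1/P tumors by edgeR (lowest adjusted p = 0.229; 0 of 10 had an unadjusted p under 0.05), and their log2 differences ran from -0.63 (Stox1, SE 0.79) to 0.56 (Hnrnph3, SE 0.33). The nearest genes, Ccar1 and Slc25a16, were at 0.19 (SE 0.19) and -0.41 (SE 0.30). Against the glands, where Tet1 fell by 3.45, several neighbours also differed in P/Rbf tumors. Slc25a16 fell by 1.25 (SE 0.34, edgeR adjusted p = 0.00867), while Dna2 rose by 3.26 (SE 0.41, edgeR adjusted p = 1.36e-05) and Ccar1 by 0.92 (SE 0.22, edgeR adjusted p = 0.00366). Stox1 was at -2.22 (SE 0.87) and Pbld2 at -1.68 (SE 0.72), neither called (edgeR adjusted p = 0.0542 and 0.0772).

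**Figure D2:**
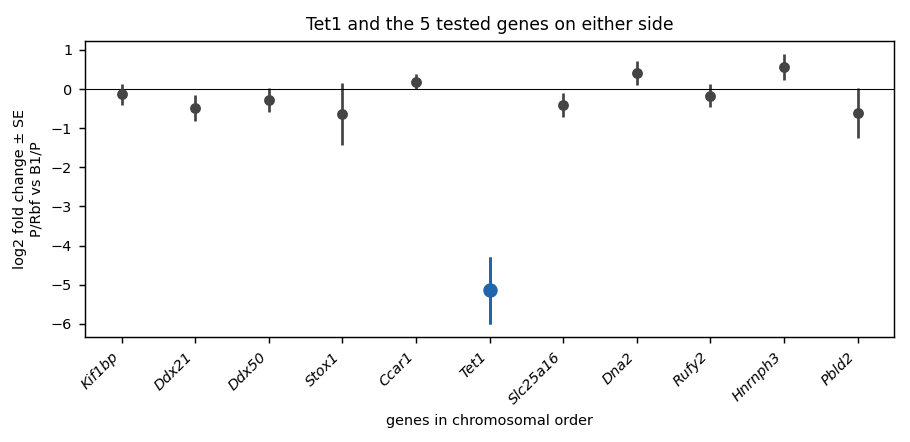
Log2 fold change with its standard error between P/Rbf and B1/P tumors (n = 5 each) for Tet1, in blue, and for the 5 tested genes on either side of it in chromosomal order. Tet1 stands at -5.15 and the 10 others between -0.63 and 0.56.

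Tet2 had similar group means, at 66.2 CPM in B1/P/Rbf, 62.6 in B1/P and 66.5 in P/Rbf tumors and 53.7 in glands. Single samples spread more widely, at 40.8 to 89.1 CPM in B1/P/Rbf tumors, 51.4 to 69.6 in B1/P tumors, 59.4 to 76.9 in P/Rbf tumors and 47.7 to 58.8 in glands. The edgeR fit called Tet2 in no comparison, and its log2 differences were between -0.01 and 0.31. Without TMM scaling it was called higher in each tumor model than in glands (edgeR adjusted p = 0.0221, 0.0459 and 0.043). Tet3 was at 142, 166, 217, 224 and 168 CPM in B1/P/Rbf tumors, at 281, 240, 159, 160 and 180 CPM in B1/P tumors and 111, 134, 214, 118 and 206 CPM in P/Rbf tumors. The glands had 94.6, 115 and 84.4 CPM, below all B1/P/Rbf and B1/P tumors but not below the lowest P/Rbf tumor. Tet3 rose 1.88-fold in B1/P/Rbf and 2.09-fold in B1/P tumors over the glands (edgeR adjusted p = 0.0154 and 0.00709), while in P/Rbf tumors the log2 difference of 0.68 (SE 0.27) was not called (edgeR adjusted p = 0.0577; 0.0406 by DESeq2 and 0.0125 without TMM scaling). It was also called without B1/P tumor 225068 or P/Rbf tumor 287842 or 287822, and was 0.29 with the filter of log2 CPM of 6 or more (edgeR adjusted p = 0.418). With the library term neither Tet3 call held, and with the filter of log2 CPM of 6 or more that in B1/P/Rbf tumors was lost (edgeR adjusted p = 0.0779), the highest edgeR, limma or DESeq2 adjusted p being 0.426 and 0.0752. Without gland 330156 both were lost as well, and without gland 330154 that in B1/P/Rbf tumors.

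Among the PRC2 subunits, Suz12 was called higher in both T121 models than in B1/P tumors. It was at 96.4, 174, 144, 145 and 153 CPM in B1/P/Rbf tumors and 162, 139, 182, 153 and 167 CPM in P/Rbf tumors. The B1/P tumors had 77.7, 105, 45.1, 69.8 and 83.2 CPM, close to the glands at 67.9, 75.2 and 74 CPM. All P/Rbf tumors exceeded all B1/P tumors, and in B1/P/Rbf tumors 1 of 5 fell within the B1/P range. Suz12 rose 1.87-fold in B1/P/Rbf tumors (log2 fold change 0.90, SE 0.20, edgeR adjusted p = 0.00617) and 2.11-fold in P/Rbf tumors (log2 fold change 1.08, SE 0.20, edgeR adjusted p = 0.00229) over B1/P tumors. Both calls held under all 7 alternatives and without any single library, with adjusted p up to 0.0293 and 0.0238 in edgeR, limma or DESeq2. Against the glands, Suz12 rose 1.97-fold and 2.22-fold in the T121 models, the first not called with the library term (edgeR adjusted p = 0.0729), and B1/P tumors differed from the glands by 0.07 (SE 0.23) on the log2 scale.

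Ezh2, the catalytic subunit, was at 74.4, 111, 93.1, 121 and 125 CPM in B1/P/Rbf tumors and 86.5, 68.7, 71.3, 92.7 and 66.2 CPM in B1/P tumors. P/Rbf tumors had 45.8, 118, 124, 114 and 82.8 CPM, and glands 21.2, 24.5 and 21.1 CPM. All 15 tumors lay above the glands and the models overlapped with one another. The rise over the glands was 4.71-fold, 3.46-fold and 4.36-fold in B1/P/Rbf, the B1/P and the P/Rbf tumors (edgeR adjusted p = 2e-05, 0.000171 and 3.27e-05). Between the models, log2 differences were 0.45 (SE 0.23), 0.11 (SE 0.23) and 0.33 (SE 0.23), and none was called. Eed, which binds the methylated histone tail, was at 38.2 to 58.2 CPM in B1/P/Rbf, 24.9 to 52.7 in B1/P and 40 to 60.4 in P/Rbf tumors, and 35.7 to 36.8 in glands. The edgeR fit called it in no comparison, the closest being P/Rbf over B1/P tumors (log2 difference 0.56, SE 0.20, edgeR adjusted p = 0.0523) and P/Rbf tumors over glands (0.57, edgeR adjusted p = 0.0587). DESeq2 called both (adjusted p = 0.0281 and 0.0416), and the difference from glands was called under 4 of the 6 alternatives that tested Eed. With the library term the difference of P/Rbf from B1/P tumors was 0.20 (edgeR adjusted p = 0.597). The first was also called without B1/P tumor 248662, P/Rbf tumor 290860 or gland 330155, and the second without B1/P tumor 246361 or 248662 or P/Rbf tumor 290860. Eed was also called in B1/P/Rbf against B1/P tumors with the library term (adjusted p = 0.0186 by edgeR) or without B1/P tumor 248662, and against glands with the library term or without TMM (adjusted p = 0.0143 and 0.00928 by edgeR).

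The alternative catalytic subunit Ezh1 is typical of resting cells. The log2 ratio of Ezh2 to Ezh1 within a sample was 0.23, 0.62, -0.05, 0.81 and 0.88 in B1/P/Rbf tumors and 0.47, -0.09, 0.85, 1.3 and 0.64 in B1/P tumors. The P/Rbf tumors had ratios of -0.51, 1.06, 0.98, 0.64 and 0.63, and the glands -1.99, -1.69 and -1.95. No tumor reached the glands. The mean differences from the glands were 2.38, 2.51 and 2.44, each with an exact two-sided permutation p = 0.0357, the smallest that 5 against 3 samples can give, and 0.143 after adjustment over the 12 ratio comparisons. Between tumor models this ratio differed by -0.14, -0.06 and -0.07 with exact permutation p = 0.651, 0.849 and 0.833. Ezh1 itself was called lower in B1/P tumors than in glands (log2 fold change -0.68, SE 0.22, edgeR adjusted p = 0.0239) and was not called in the other models. That call was lost without TMM, with only the groups compared and without B1/P tumor 246361, 255232 or 248662 or any gland (edgeR adjusted p up to 0.239).

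Counted over the members, 2 of 10 were called between B1/P/Rbf and the B1/P tumors, both higher, where 16.7% of the 19186 genes tested were called 7.36% higher and 9.29% lower. Between P/Rbf and B1/P tumors 4 of 10 were called, Dnmt1, Uhrf1 and Suz12 higher and Tet1 lower, with 19.2% of all genes called, 8.43% higher and 10.8% lower. That count was 2 by limma-voom, without TMM, without a filter, with only the groups compared and with the library term, and 1 with the filter of log2 CPM of 6 or more. Between B1/P/Rbf and the P/Rbf tumors 1 of 10 was called, Tet1, higher in B1/P/Rbf, with 0.281% of all genes called, 0.219% higher and 0.0625% lower. Both counts against B1/P tumors thus sit on a broad background. Groups did not overlap for 2, 3 and 1 members in these comparisons, against 10.5%, 8.86% and 3.02% of genes. Median log2 differences of the 10 members were 0.44, 0.29 and 0.05, with all-gene medians of -0.06, -0.05 and -0.01.

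Against the glands, 6 of 10 members were called in B1/P/Rbf, 4 in B1/P and 5 in P/Rbf tumors, where 37%, 33.8% and 37.7% of all genes were called. Without TMM scaling 8, 6 and 9 members were called, with 41.7%, 39.4% and 41.1% of all genes. Of all genes called, 46%, 49.9% and 46.1% were higher in the tumors with TMM scaling and 64%, 67.8% and 59.9% without it. Uhrf1, Dnmt1 and Ezh2 were called higher in all 3 models, and the only call downward was Tet1 in P/Rbf tumors, where 20.3% of all genes were called lower. Groups did not overlap for 8, 4 and 7 members, against 50.5%, 41.4% and 46.5% of genes. Called higher were 6, 4 and 4 of the 10 members, against 17%, 16.8% and 17.4% of all genes. The rises of Uhrf1, Dnmt1 and Ezh2 ranged from 3.46-fold to 17.3-fold. Median log2 differences of the members were 0.94, 1.21 and 0.83. The all-gene medians were 0.05, 0.12 and 0.05 with TMM scaling and 0.42, 0.47 and 0.33 without it, so small differences from the glands depend on the scaling.

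**Figure D3:**
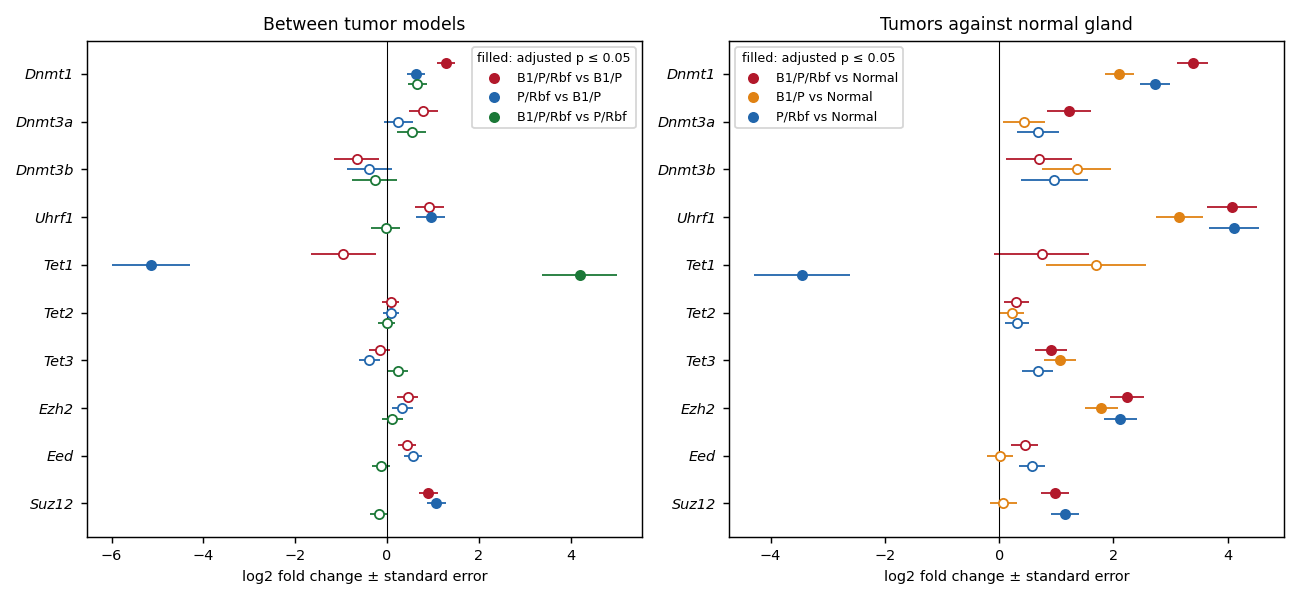
Log2 fold change with its standard error for each of the 10 genes, between tumor models on the left and between each tumor model and normal gland on the right; filled circles have an edgeR adjusted p of 0.05 or less. Suz12 and Dnmt1 are filled for both T121 models against B1/P tumors, and Tet1 is at -5.15 and 4.20 in the comparisons with P/Rbf tumors.

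Measured per kilobase of the gene's merged exons, a level and not a difference, Dnmt1 and Uhrf1 ranked highest in every tumor model. Dnmt1 averaged 87.2 ± 28.9 CPM per kb (SD, n = 5) in B1/P/Rbf, 35.8 ± 3.57 in B1/P and 55.1 ± 8.71 in P/Rbf tumors, and Uhrf1 62.2 ± 21.2, 32.8 ± 10.7 and 63.4 ± 23.4. In glands Suz12 led, at 14.6 ± 0.79 CPM per kb (SD, n = 3), with Dnmt1 at 8.33 ± 1.02 and Uhrf1 at 3.67 ± 0.74. Tet1 was the lowest of the 10 in every group, at 0.039 ± 0.034 in P/Rbf tumors and 1.40 ± 0.72 in B1/P tumors, and Dnmt3b came next. With the longest coding transcript as the length, Ezh1 led in the glands and Dnmt1 and Uhrf1 still led in the tumors.

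Genes that work with these enzymes were examined in 5 lists: PRC2 partners, subunits of Polycomb repressive complex 1 (PRC1), erasers of the Polycomb marks, methyl-CpG readers, and methylation cofactors and repair genes. Of 59 genes 57 were tested. Between B1/P/Rbf and the B1/P tumors 3 were called higher and 8 lower, between P/Rbf and B1/P tumors 5 higher and 6 lower, and 0 between B1/P/Rbf and the P/Rbf tumors (3 higher and 8 lower at an unadjusted p under 0.05; 1 higher and 3 lower called by DESeq2 and 0 by limma-voom). Of the PRC1 subunits, 5 of 20 were called lower in B1/P/Rbf against B1/P tumors (2 by limma-voom) and 4 of 20 in P/Rbf tumors. Over all genes 9.29% and 10.8% were called lower. In both comparisons 0 were called higher by edgeR, DESeq2 or limma-voom, or had a positive difference with an unadjusted p under 0.05. Both T121 models had more Rbbp4, a histone-binding PRC2 partner, with log2 fold changes of 1.15 (SE 0.22) and 0.96 (SE 0.22) and edgeR adjusted p = 0.00262 and 0.00723, the second call being lost with the library term (edgeR adjusted p = 0.126). Jarid2, which recruits PRC2, rose in B1/P/Rbf tumors from 27.6 to 33.9 CPM in B1/P tumors to 41.5 to 91.6 CPM (log2 fold change 1.23, SE 0.22, edgeR adjusted p = 0.00193). The methyl-CpG reader Mbd1 rose by 0.89 (SE 0.26, edgeR adjusted p = 0.0275), a call lost with the library term, with only the groups compared and without B1/P/Rbf tumor 208857 or 209490 or B1/P tumor 225068, 255232 or 248662 (edgeR adjusted p up to 0.121).

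Falls were led by Dnmt3l, a catalytically inactive partner of the de novo enzymes. Its levels were very low, with means of 0.073 CPM (B1/P/Rbf), 0.080 CPM (P/Rbf) and 0.58 CPM (B1/P), and the difference of P/Rbf tumors was not called by limma-voom or with the library term. Against B1/P tumors Apobec1, a cytidine deaminase, fell by 1.35 in B1/P/Rbf and by 1.48 in P/Rbf tumors on the log2 scale (SE 0.30 in both, edgeR adjusted p = 0.0058 and 0.00343). The PRC1 subunits Yaf2, in B1/P/Rbf tumors, and Kdm2b, in P/Rbf tumors, fell by 0.98 (SE 0.22) and by 0.84 (SE 0.24), with edgeR adjusted p = 0.00626 and 0.0222. Kdm2b also fell by 0.76 (SE 0.24) in B1/P/Rbf tumors (edgeR adjusted p = 0.0388), a call lost under 14 of 25 alternatives, among them limma-voom, no TMM scaling and leaving out B1/P/Rbf tumor 208855, 208857 or 208863, B1/P tumor 225068 or 255232, P/Rbf tumor 287842 or any gland (edgeR or limma adjusted p up to 0.195). Its call in P/Rbf tumors was lost with only the groups compared and without B1/P tumor 255232 (edgeR adjusted p up to 0.0854). In P/Rbf tumors Gadd45b and Cdca7, a partner of the helicase Hells, rose by 1.16 (SE 0.37) and 1.03 (SE 0.28) over B1/P tumors, with edgeR adjusted p = 0.0378 and 0.0187. Neither of these rises was called with the library term, with only the groups compared or without P/Rbf tumor 290845, and that of Gadd45b also not by limma-voom, without TMM scaling, or without B1/P tumor 225070, 246361 or 248662 or P/Rbf tumor 287845 or 290860 (edgeR adjusted p up to 0.158 for Gadd45b and 0.249 for Cdca7).

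Against the glands, 22 of 57 genes of the 5 lists were called higher in B1/P/Rbf tumors and 6 lower, 24 and 4 in the B1/P tumors, and 21 and 4 in P/Rbf tumors. Over all genes 17% were called higher and 20% lower, 16.8% and 16.9%, and 17.4% and 20.3%. Hells, which opens heterochromatin for methylation, rose from 6.32 to 9.89 CPM in glands to 62.0 to 99.7 CPM in B1/P/Rbf tumors (log2 fold change 3.32, SE 0.30, edgeR adjusted p = 4.08e-07). Its rises in B1/P and P/Rbf tumors were 2.81 (SE 0.29) and 3.25 (SE 0.29). Cdca7 rose by 3.13 (SE 0.38), 2.70 (SE 0.37) and 3.73 (SE 0.39), Phf19, a PRC2 partner, by 3.28 (SE 0.71), 2.42 (SE 0.68) and 2.08 (SE 0.67), and Cbx2, a PRC1 reader of the Ezh2 mark, by 2.61 (SE 0.33), 2.67 (SE 0.33) and 2.76 (SE 0.34), all of them called in the edgeR fit. Idh1, which makes the cosubstrate of the Tet enzymes, fell in all 3 models, by 1.67 (SE 0.44), 2.00 (SE 0.44) and 1.15 (SE 0.44), the last with edgeR adjusted p = 0.0475 and called under 8 of 25 alternatives. That last call was lost without B1/P/Rbf tumor 208855, 208857, 208863 or 209490, B1/P tumor 225068, 225070 or 246361, P/Rbf tumor 287842, 290860 or 290845, or any gland (edgeR adjusted p up to 0.163). Ring1, a ubiquitin ligase of PRC1, fell by 0.96 (SE 0.27), 1.00 (SE 0.27) and 1.24 (SE 0.27) in the 3 models in the same order, Yaf2 fell by 1.08 (SE 0.24) in B1/P/Rbf tumors, and Jarid2 by 0.79 (SE 0.25) in B1/P tumors. Without TMM scaling neither Ring1 nor Jarid2 was called in B1/P tumors, nor was Jarid2 without any gland in turn (edgeR adjusted p up to 0.182), and with the library term Idh1 and Yaf2 were not called in B1/P/Rbf tumors and Jarid2 not in B1/P tumors. Ring1 was not called in B1/P/Rbf tumors without TMM scaling either, nor Phf19 in B1/P and P/Rbf tumors without gland 330154 or 330156 (edgeR adjusted p up to 0.101 and 0.0758).

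Proliferation and cell type markers also differed between some of these groups. The 20 proliferation genes had 9 called higher in B1/P/Rbf and 12 in P/Rbf tumors over B1/P tumors, with medians of 0.78 and 0.95 on the log2 scale, and 0 called by edgeR, DESeq2 or limma-voom between B1/P/Rbf and the P/Rbf tumors, with a median of -0.25 (1 higher and 4 lower at an unadjusted p under 0.05). Between the same models 6 of 8 adipocyte markers were higher in B1/P/Rbf tumors at an unadjusted p under 0.05, while edgeR and limma-voom called 0 and DESeq2 3 of 8. Their mean log2 CPM had a median of 1.60 and a range of -1.96 to 4.61 in B1/P/Rbf tumors, against -1.73 and -2.05 to 1.07 in P/Rbf tumors. In the glands the summed level of the proliferation genes was 384 to 406 CPM, against 3730 to 5150 in B1/P/Rbf, 1860 to 3640 in B1/P and 2970 to 6710 in P/Rbf tumors. Against B1/P tumors, edgeR called 3 and 6 of 8 epithelial markers higher and 2 and 4 of 9 fibroblast markers lower in B1/P/Rbf and P/Rbf tumors. DESeq2 called 5 and 4 of the fibroblast markers lower and limma-voom 4 and 4 (6 and 4 at an unadjusted p under 0.05). Each of these tools called 4 and 6 epithelial markers higher. Of the skeletal muscle markers 4 and 5 of 6 were called lower by edgeR and by DESeq2, and 0 by limma-voom. In B1/P/Rbf tumors limma-voom called 1 of them higher. Their mean log2 CPM had a median of -2.05 in B1/P tumors, below -1.47 in B1/P/Rbf and -1.43 in P/Rbf tumors, and a highest value of 6.00 in 1 B1/P tumor, with sums of 1.45 to 593 CPM in that model. Of the macrophage markers 0 and 2 of 10 were called lower (1 and 8 at an unadjusted p under 0.05). Summed fibroblast markers were at 2590 to 12900 CPM in B1/P, 847 to 4800 in B1/P/Rbf and 1290 to 4050 in P/Rbf tumors. The part of proliferation and of cell makeup in the differences of the 10 genes was not tested.

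Within genotypes, the 10 genes did not vary as 1 group. After each model's mean was subtracted, the 45 pairs of genes had a median Pearson correlation of log2 CPM of 0.14 over the 15 tumors, which share their libraries and genotype means and are given without a test. The highest coefficients were those of Uhrf1 and Ezh2 (r = 0.67), Dnmt3b and Tet3 (r = 0.60) and Tet1 and Ezh2 (r = 0.58), and that of Dnmt3a and Ezh2 was -0.62. The values with Ezh2 rest largely on P/Rbf tumor 287842, which had the lowest Ezh2 of its model. Without it they were 0.37 for Uhrf1, 0.29 for Tet1 and -0.27 for Dnmt3a, while Dnmt3b and Tet3 stayed between 0.52 and 0.80 with any tumor left out, an alternative chosen after the data were seen. With the mean of the 20 proliferation genes the correlation was 0.66 for Ezh2, 0.52 for Uhrf1, 0.21 for Dnmt1, -0.17 for Suz12 and -0.69 for Dnmt3a. Without P/Rbf tumor 287842 the first, second and last of these were 0.42, 0.25 and -0.52. With single tumors left out that of Dnmt1 ran from 0.087 (without B1/P tumor 255232) to 0.50 (without B1/P/Rbf tumor 210906), and that of Suz12 from -0.30 (without B1/P/Rbf tumor 208855) to 0.014 (without B1/P tumor 225070). These coefficients were not tested against one another. In P/Rbf tumors Tet1 rests on 1 to 38 counts, so that its log2 CPM there depends on the prior count and its correlations rest in part on a group near the floor.

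**Figure D4:**
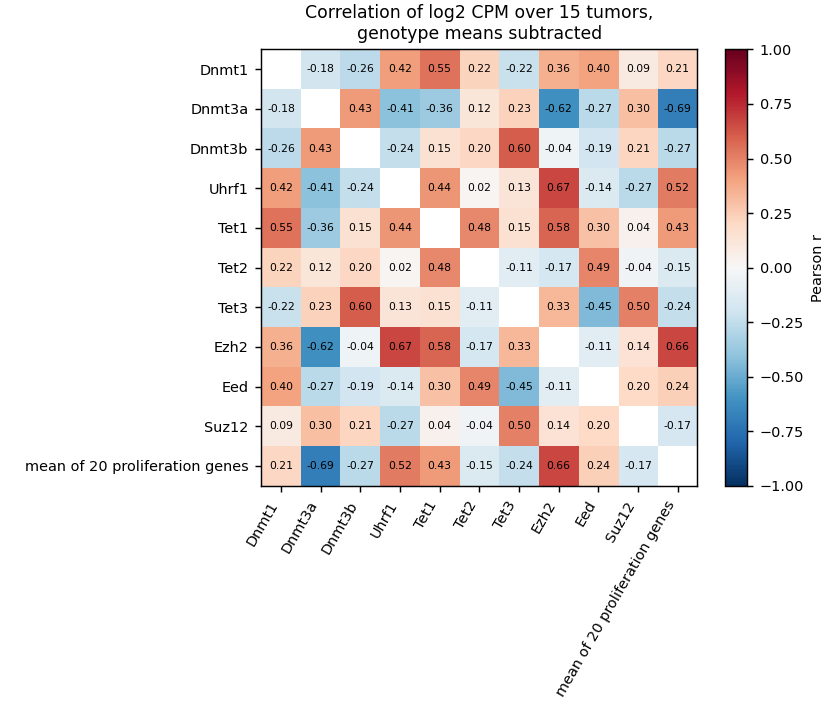
Pearson correlation of log2 CPM over the 15 tumors after subtraction of each genotype's mean, for each pair of the 10 genes and for each with the mean of 20 proliferation genes; red is positive and blue negative. Ezh2 and Uhrf1 are at 0.67 and Dnmt3a and Ezh2 at -0.62, values that become 0.37 and -0.27 without P/Rbf tumor 287842, and Dnmt3a is at -0.69 with the proliferation mean.

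The genes nearest to each member by this measure were listed among the 12159 genes whose mean over the tumors was 5 CPM or more. Of the 30 genes listed, 3 per member, 10 lie on the member's own chromosome. Eed on chromosome 7 was nearest to Btbd1 (r = 0.96), Asb7 (0.94) and Nipa2 (0.93), all on chromosome 7, and Dnmt1 on chromosome 9 to Wdr48 (0.86), Cep162 (0.86) and Ano10 (0.84), all on chromosome 9. Ezh2 on chromosome 6 was nearest to AW554918 (0.93) and to Exoc4 (0.93) and Hmces (0.90) of chromosome 6, and Uhrf1 on chromosome 17 to Mpnd (0.86) and Chaf1a (0.84) of that chromosome and to 5430419D17Rik (0.86). Tet1 was nearest to Nemp2 (0.97), Itgb8 (0.87) and Dact2 (0.85), none on its chromosome, with the limit of its low counts in P/Rbf tumors. Dnmt3a, Dnmt3b, Tet2, Tet3 and Suz12 had nearest genes on other chromosomes: Dgkd (0.91), Pebp1 (0.89), Akap11 (0.83), A730017L22Rik (0.92) and Ptgr2 (0.91).

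The count was then extended to the 100 nearest genes, after the 3 nearest had been seen. For Eed 78 of 100 lie on chromosome 7, which holds 7.44% of the genes considered. For Ezh2 62 lie on chromosome 6 (4.9%), for Dnmt1 38 on chromosome 9 (5.61%), for Uhrf1 32 on chromosome 17 (5.07%) and for Suz12 24 on chromosome 11 (8.42%). Dnmt3b had 16 on chromosome 2 (7.75%), Tet3 12 on chromosome 6 (4.9%), and Dnmt3a and Tet2 6 each, on chromosomes 12 (3.5%) and 3 (4.84%). Tet1 had 0 of 100 on chromosome 10 (4.7%). With any tumor left out, Eed had 63 to 80 genes of its own chromosome among its 100 nearest. Single tumors carried much of the other counts: Ezh2 had 32 without P/Rbf tumor 287842, Dnmt1 16 without B1/P/Rbf tumor 210906 and Uhrf1 14 without B1/P tumor 248662. Suz12 had 6 without B1/P tumor 225070, 40 without B1/P/Rbf tumor 208855 and 37 without B1/P tumor 248662. The counts of the remaining genes ranged from 0 to 21.

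**Figure D5:**
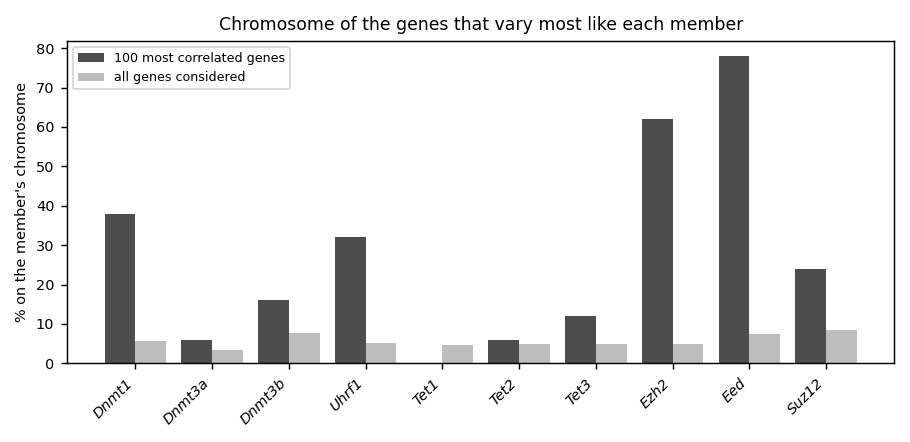
Percentage of genes on the same chromosome as each of the 10 genes, among the 100 genes most correlated with it over 15 tumors (dark) and among all 12159 genes considered (light). Eed and Ezh2 reach 78 and 62, the latter 32 without P/Rbf tumor 287842, and Tet1 is at 0.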

How the data were processed

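Stranded paired-end RNA libraries were made from 15 tumors and 3 glands. The authors trimmed reads with cutadapt 1.18 and counted them with RSEM 1.3.0 (submitters' processing notes), and deposited RSEM's expected count per gene, not normalized. The paper's methods name a human reference, while all 55450 deposited identifiers are those of GENCODE M21 on GRCm38. Of the values 5.61% were not whole and were rounded. All columns were assigned to samples by name. Counts were analysed in R 4.3.3 with edgeR 4.0.16: filterByExpr (minimum count 10; 19186 genes kept), TMM scaling, 1 quasi-likelihood fit of all 18 samples by group, and Benjamini-Hochberg adjustment over all genes kept. A gene was called at an adjusted p up to 0.05. Log2 CPM had a prior count of 2. Ratios were tested by exact permutation, two-sided.

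Named genes were the members, Brca1, Trp53, Ezh1, up to 3 called genes per direction and comparison from lists of related genes, and the 3 genes most correlated with each member. Members and lists were chosen with earlier results of these data known. Alternatives were DESeq2 1.42.0, limma-voom (limma 3.58.1) with quantile normalization, scaling by library size alone, keeping all genes, the study's own filter (log2 CPM of 6 or more in 6 samples or more), only the groups compared, a term for libraries 1 to 8 against 9 to 18 (a split from an earlier analysis; the labels name no batch), and each sample left out. All B1/P/Rbf libraries lie in 1 to 8 and all P/Rbf and gland libraries in 9 to 18, so B1/P tumors alone set that term. For Tet3 in B1/P/Rbf tumors against glands, the SE was 0.27 without the term and 0.41 with it. The edgeR fit was tested on simulated data. Replicate pairs differed beyond counting noise, so p-values rest on the spread between mice. Protein sequences were not used here.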

Additional observations from a re-analysis of the deposited data

Results flagged for a closer look

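Groups of 5 samples were screened for a single value far from the others, for the 10 genes and the 2 ratios in each tumor model, 36 groups in all, of which chance alone singles out about 1 in 20. For 2 of the 36 a sample stood apart. B1/P tumor 255232 had Dnmt1 at 310 CPM, the next highest B1/P tumor being at 261 CPM, a gap of 0.77 of the group's range, and it still lay below every P/Rbf and B1/P/Rbf tumor. P/Rbf tumor 287842 had a log2 ratio of Ezh2 to Ezh1 of -0.51, the next lowest P/Rbf tumor being at 0.63, a gap of 0.72 of the range; the same tumor had the lowest Ezh2 (45.8 CPM), the lowest Uhrf1 (117 CPM) and the highest Dnmt3a (274 CPM) of its model.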

How the results depend on the processing

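Of 1482 values of the 10 genes under the alternatives, 1356 kept their direction and side of the threshold, 52 lost a call, 37 gained one and 37 changed sign, none of these a called difference. Against B1/P tumors, the calls of Suz12 in both T121 models, Dnmt1 in B1/P/Rbf and Tet1 in P/Rbf tumors held in every fit that tested them. Of 50 calls of Brca1, Trp53, Ezh1 and the named genes of the lists, 29 held under every alternative and 0 reversed; the neighbours of Tet1 were not rerun. The cause of the changes was not tested, except that fewer genes or samples enter some fits: Tet1, Dnmt3b and Eed were not tested at a log2 CPM of at least 6. For Tet1 in P/Rbf tumors, with 1 to 38 counts a library, the depth limits the fold. No paired analysis was possible because the samples' numbers name single mice and no group shares one with another.

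Between B1/P/Rbf and the B1/P tumors, 886 genes were called at a log2 CPM of at least 6 and 2039 with only the groups compared, against 3195. Between B1/P/Rbf and the P/Rbf tumors, where 54 genes and 1 member were called, DESeq2 called 1015 and 2, limma-voom 26 and 0, the log2 CPM filter 3 and 0, only the groups compared 1 and 0, and the library term 5 and 0. Between P/Rbf and B1/P tumors, where 3684 genes and 4 members were called, 2 members were called by limma-voom, without TMM, without a filter, with only the groups compared and with the library term, and 1 with the log2 CPM filter, and 866, 1507 and 2009 genes with the log2 CPM filter, only the groups compared and the library term. Against glands, the log2 CPM filter left 1760, 1600 and 1669 genes called in B1/P/Rbf, the B1/P and the P/Rbf tumors, the library term 3875 in B1/P/Rbf tumors, and 9 members were called in P/Rbf tumors without TMM.

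With each sample left out, the members called ranged from 2 to 4 (B1/P/Rbf against B1/P), 0 to 1 (B1/P/Rbf against P/Rbf), 2 to 5 (P/Rbf against B1/P), 4 to 6, 3 to 5 and 5 to 6 (against glands, for B1/P/Rbf, for B1/P and for P/Rbf), and genes called from 2315 to 3470, 9 to 131, 2768 to 3925, 4993 to 7313, 4322 to 6633 and 5157 to 7482. The 54 genes became 131 without B1/P/Rbf tumor 209490 and 9 to 29 without B1/P/Rbf tumor 208855, 208857 or 210906, P/Rbf tumor 287845 or 287822, or gland 330154 or 330155. The lowest counts of genes called against glands came without gland 330156. The log2 ratio of Ezh2 to Ezh1 differed by -0.32 to 0.031 between B1/P/Rbf and B1/P, -0.33 to 0.074 between B1/P/Rbf and P/Rbf and -0.25 to 0.20 between P/Rbf and B1/P tumors, and that of Dnmt3b to Dnmt3a by -0.16 to 0.35 between P/Rbf tumors and glands.

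Uncalled differences changed sign as follows on the log2 scale. Between B1/P/Rbf and the P/Rbf tumors, Uhrf1 was at 0.081 by limma-voom, 0.060 without TMM, 0.061 with the log2 CPM filter, 0.012 with the library term and -0.24 to 0.14 with samples left out, and Tet2 at 0.052, 0.088, 0.10, 0.25 and -0.14 to 0.13 in the same order. There Tet3 was at -0.18 and Eed at 0.55 with the library term, and with samples left out Dnmt3b ranged from -0.52 to 0.035 and Ezh2 from -0.080 to 0.22. Tet2 between B1/P/Rbf and the B1/P tumors ranged from -0.050 to 0.21. Between P/Rbf and B1/P tumors, Dnmt3a was at -0.045 by limma-voom and -0.032 to 0.45 with samples left out, and Tet2 at -0.0038 by limma-voom, -0.047 with the log2 CPM filter and -0.061 with the library term. In B1/P tumors against glands, Tet2 was at -0.043 with the log2 CPM filter, Eed at -0.012 without a filter and -0.16 to 0.12 with samples left out, and Suz12 at -0.012 by limma-voom, -0.20 with the log2 CPM filter and -0.069 to 0.22 with samples left out. Tet2 in P/Rbf tumors against glands was at -0.090 with the log2 CPM filter.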
